A study of Mus musculus with 7 samples.

Results

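The 10 genes described here are the mouse genes that sense, carry or break down adenosine: the receptors Adora1, Adora2a, Adora2b and Adora3, the enzymes Ada, Adk and Pnp, the surface protease Dpp4, and the equilibrative nucleoside transporters Slc29a1 and Slc29a2. They were taken by name, and all 10 were found among the 53465 Ensembl gene IDs of the count table. RNA was sequenced from CD4+ CD25+ cells of mouse liver, isolated by flow cytometry; these 2 surface proteins together mark regulatory T cells (Treg). WT_NCD stands for C57BL/6 wild type mice given normal control diet (2 libraries). C57BL/6 wild type mice of the group WT_MCD received a methionine/choline-deficient diet, a common model of fatty liver with inflammation (2 libraries). KO_MCD comprised CD73 knockout mice on the deficient diet (3 libraries), and there was no knockout group on the control diet. All 3 groups were kept on their diet for 4 weeks. The sources used here do not give the knockout strain's background, the deleted part of its gene or the animals' ages. Nor do they say whether each library is a separate animal or a pool. The p-values therefore measure only how far these libraries spread, and that spread may be technical.

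Adenosine outside cells is made from ATP by 2 ectoenzymes in series, CD39 (Entpd1) and CD73 (Nt5e), both of which Treg carry. It acts through G protein-coupled receptors: Adora2a and Adora2b raise cyclic AMP and Adora1 and Adora3 lower it, and in T cells Adora2a is the receptor best known for damping activation. The signal ends when the transporters carry adenosine into the cell, where Adk turns it into AMP and Ada into inosine. Ada also acts at the cell surface, and Pnp then splits inosine into hypoxanthine.

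The libraries held 19731501 to 24398738 counts each, and where a gene has no count its level could still be as high as 0.129 to 0.158 CPM depending on the library (3 counts, counting error only). CPM is the count scaled to library size with TMM factors, and CPM per kb divides this by the gene's summed exon length. Nt5e, the targeted gene, stood at 243 and 241 CPM (WT_NCD), 177 and 87.6 CPM (WT_MCD) and 5.88, 14.5 and 6.43 CPM (KO_MCD), so the knockout libraries were the lowest. Its log2 fold change was -3.88 (SE 0.51) in KO_MCD against WT_MCD and -4.76 (SE 0.52) in KO_MCD against WT_NCD. The main test, edgeR, called neither, with adjusted p = 0.203 in the second. DESeq2 called both, with adjusted p = 2.77e-08 and 7.61e-14. A gene not called by edgeR below is therefore not shown to be unchanged. Entpd1 was counted in all 7 libraries, at 128 to 239 CPM, and its groups overlapped. All 16 pan T cell and 9 Treg markers were counted in every library, with Foxp3, the defining Treg factor, at 108 to 287 CPM. Markers of macrophages and Kupffer cells were also present, and their summed level ran from 1193 to 10846 CPM in WT_NCD, 2421 to 32887 CPM in WT_MCD and 7408 to 12706 CPM in KO_MCD. WT_MCD replicate 2 stood apart with the highest macrophage sum and the lowest Treg sum, 1089 CPM against 2073 to 3231 CPM in the other 6 libraries. In bulk RNA of this kind, fewer cells of a type and less RNA per cell cannot be told apart.

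**Figure D1:**
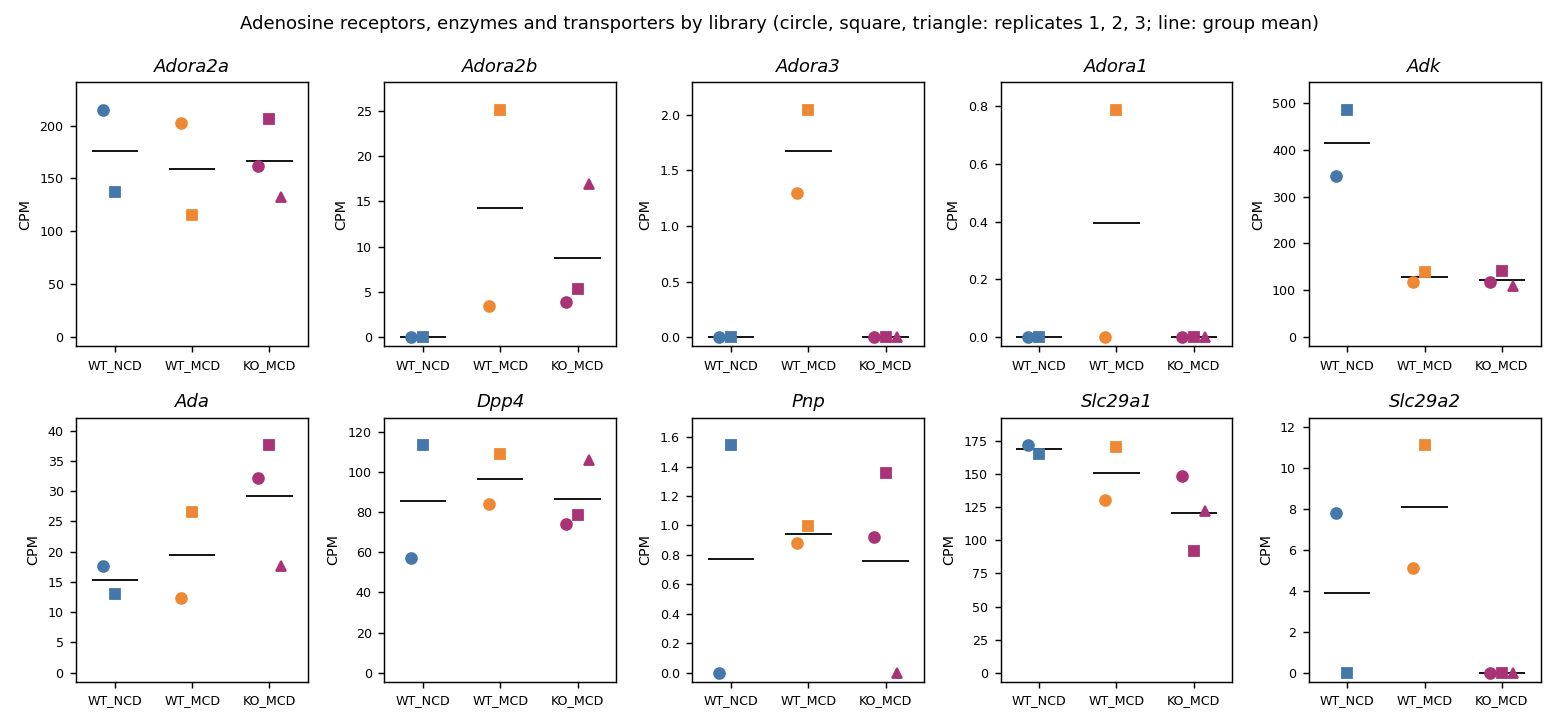
Level of each of the 10 adenosine genes in CPM (linear axis, own scale per gene) in the 7 libraries, grouped by genotype and diet. Points are libraries and lines are group means. Adk was at 345 and 485 CPM in the 2 WT_NCD libraries and at 110 to 141 CPM in the 5 libraries on the deficient diet, while Adora2b had 0 counts in both WT_NCD libraries.

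The sequences below are shown because they bear on how 2 of the results can be read. Pnp lies on chr14:50931082-50965237 (GRCm38, plus strand) and overlaps its near-identical copy Pnp2 and a readthrough model, Gm49342, on the same strand. Their 4 matched coding exon pairs were 98.1% to 100% identical, and of the 818 words of 50 bases in the coding part of Pnp 649 (79.3%) also occur in Pnp2 or Gm49342. The pair below is the 170-base coding exon at chr14:50947852-50948021 in Pnp and chr14:50959515-50959684 in Pnp2, 5′ to 3′, with the single base that differs in capitals.
Pnp: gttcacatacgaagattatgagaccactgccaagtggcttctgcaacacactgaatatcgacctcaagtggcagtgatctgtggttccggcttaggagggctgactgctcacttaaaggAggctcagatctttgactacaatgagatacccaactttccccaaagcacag
Pnp2: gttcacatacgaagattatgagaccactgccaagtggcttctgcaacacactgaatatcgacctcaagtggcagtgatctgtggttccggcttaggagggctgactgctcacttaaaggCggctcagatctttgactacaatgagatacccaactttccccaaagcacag
The 2 exons share a run of 119 identical bases, and the Pnp count is therefore uncertain wherever a read falls inside such a run.

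For 9 of the 10 genes the RefSeq table (GRCm38.p6) held windows from 250 bases before to 50 after a transcript start, 18 windows in all. Adora2a had no window, so its promoter was not searched, and 8 of the 18 windows belonged to Slc29a1. The windows were searched on both strands for the CRE half-site, which cyclic AMP responsive factors bind (letters TGACG). The CRE half-site was found in 2 of the 18 windows, 1 each of Adk and Slc29a1, and occurs in 20.8% of all 32851 windows. The core of the hypoxia response element (letters ACGTG), whose first 3 letters are the last 3 of the half-site and can overlap it, was found in 4 of the 18 windows, 1 of Adora1 and 3 of the 8 of Slc29a1, and occurs in 19.6% of all windows. The first Adk window, chr14:21052324-21052623 (plus strand), and the Adora2b window, chr11:62248734-62249033 (plus strand), are printed because these 2 genes stood apart between the diets, in opposite directions. Capitals mark the CRE half-site match, which begins 12 bases before the Adk start. The second Adk window, not printed, held no match to either set of letters, and neither did the Adora2b window.
Adk: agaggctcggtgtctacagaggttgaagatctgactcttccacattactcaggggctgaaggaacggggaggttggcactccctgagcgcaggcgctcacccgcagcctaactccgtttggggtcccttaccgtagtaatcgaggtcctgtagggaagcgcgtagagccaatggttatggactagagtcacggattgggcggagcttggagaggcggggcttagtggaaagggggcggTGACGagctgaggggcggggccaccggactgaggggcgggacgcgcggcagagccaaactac
Adora2b: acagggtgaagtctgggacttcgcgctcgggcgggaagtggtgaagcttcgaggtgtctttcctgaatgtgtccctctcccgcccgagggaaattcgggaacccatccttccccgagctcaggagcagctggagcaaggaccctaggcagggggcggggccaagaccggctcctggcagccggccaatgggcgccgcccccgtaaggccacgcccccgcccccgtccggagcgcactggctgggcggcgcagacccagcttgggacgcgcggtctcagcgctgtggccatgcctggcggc
Both windows are rich in G and C, at 61.7% for Adk and 70.0% for Adora2b against a median of 52.7% over all windows, and hold 21 and 27 CG dinucleotides against a median of 7. A match in these letters is a description and not a binding site.

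Adora2a was the main adenosine receptor transcript in every library. Adora2a (chr10:75316877-75334784, plus strand) stood at 215 and 138 CPM (WT_NCD), 203 and 115 CPM (WT_MCD) and 161, 206 and 133 CPM (KO_MCD). The groups overlapped throughout, with means of 176 ± 54.7 (SD, n = 2), 159 ± 61.9 (SD, n = 2) and 167 ± 37.0 CPM (SD, n = 3). Its log2 fold change was -0.15 (SE 0.40) in WT_MCD against WT_NCD, 0.07 (SE 0.37) in KO_MCD against WT_MCD and -0.08 (SE 0.37) in KO_MCD against WT_NCD, with edgeR adjusted p = 1, 1 and 0.992. These differences were smaller than their standard errors, and their sign turned with a library left out. With pan T cell scaling the values against WT_NCD were 0.30 and 0.47. Relative to the median of all genes, which that scaling moves up, they were -0.37 and -0.18. Subtracting this median takes most of the rescaling back out, so the relative values are no separate check of the sign.

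The other 3 receptors had a count of 0 in both WT_NCD libraries. Adora2b (chr11:62248984-62266453, plus strand), which needs more adenosine for activation than Adora2a, was counted in all 5 libraries on the deficient diet. It had 74 and 478 counts in WT_MCD and 80, 118 and 355 counts in KO_MCD, or 3.44 and 25.1 CPM and 3.89, 5.35 and 16.9 CPM. Each deficient-diet library was above the wild type libraries on control diet, and the spread within both deficient-diet groups was wide. Against a floor of 3 counts over the WT_NCD group, Adora2b was at least 195-fold higher in WT_MCD (edgeR adjusted p = 0.548) and at least 125-fold higher in KO_MCD (edgeR adjusted p = 0.320). These bounds cover counting error of the zeros only, and they were at least 49.4-fold without WT_MCD replicate 2 and at least 66.6-fold without KO_MCD replicate 3. DESeq2 called both differences, with adjusted p = 1.44e-05 in WT_MCD and 1.43e-05 in KO_MCD, and so did edgeR with no low-count filter, with adjusted p = 0.0239 and 0.0142.

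Between the genotypes on the deficient diet Adora2b was not distinguishable. The WT_MCD mean was 14.3 ± 15.3 CPM (SD, n = 2) and the KO_MCD mean 8.71 ± 7.14 CPM (SD, n = 3), giving a log2 fold change of -0.71 (SE 1.13, edgeR adjusted p = 1). The sign rested on 1 library: it was 1.34 without WT_MCD replicate 2. Of the marker lists for other cells, those of NK, dendritic and B and plasma cells were higher in every library with Adora2b than in WT_NCD. The lists of macrophages, monocytes and neutrophils, CD8 cells, mast cells, hepatocytes and erythroid cells were not. The endothelial and stellate cell list was lower. The summed level of the 6 NK cell markers was 13.4 to 26.5 CPM in WT_NCD, where Ncr1, Klre1 and Eomes were at 0 and 3 of 6 markers were counted, against 103 to 229 CPM in WT_MCD and 73.2 to 113 CPM in KO_MCD. The 8 dendritic cell markers summed to 218 to 247 CPM in WT_NCD, where Clec9a was at 0, against 334 to 580 CPM in WT_MCD and 295 to 1031 CPM in KO_MCD. The 2 libraries highest in Adora2b, WT_MCD replicate 2 and KO_MCD replicate 3, were also the highest of their groups in both sums. The 7 B and plasma cell markers were likewise lower in WT_NCD, at 120 to 284 CPM, than in the other libraries, at 308 to 432 CPM in WT_MCD and 332 to 833 CPM in KO_MCD. There KO_MCD replicate 3 was the lowest of its group, as it was for the macrophage sum, at 7408 CPM. The part of these cells in the Adora2b level was not tested.

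Adora3 and Adora1, the receptors that lower cyclic AMP, were counted in WT_MCD only, and at low levels. Adora3 (chr3:105870858-105908926, plus strand) had 28 and 39 counts in WT_MCD, or 1.30 and 2.05 CPM, and 0 counts in the other 5 libraries. It was at least 23.7-fold higher in WT_MCD than in WT_NCD (edgeR adjusted p = 0.808) and at least 35.1-fold lower in KO_MCD than in WT_MCD (edgeR adjusted p = 1). These bounds cover counting error of the zeros only, and they were 18.7-fold and 27.6-fold without WT_MCD replicate 2. DESeq2 called neither difference, with adjusted p = 0.682 and 0.977. Adora3 shares 20.9% of its exon bases with Tmigd3 on the same strand, which had at most 0.667 CPM in any library, so reads in the shared part could have been given to either. Adora3 is also known from mast cells. The mast cell and basophil markers summed to 8.82 to 10.6 CPM in WT_MCD, 0.129 to 1.52 CPM in WT_NCD and 0.0476 to 1.04 CPM in KO_MCD. Of these 6 markers Fcer1a and Tpsb2 were at 0 in all 3 groups, Mcpt8 was at 0 outside WT_MCD and Ms4a2 in WT_NCD. Their part in the Adora3 counts was not tested. Adora1 (chr1:134199223-134235431, minus strand) had 15 counts in WT_MCD replicate 2 and 0 in the other 6 libraries, and it was the 1 gene of the 10 that did not pass the low-count filter. Its exons overlap those of Mybph on the opposite strand, and the sources used here do not say whether the counting used strand.

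**Figure D2:**
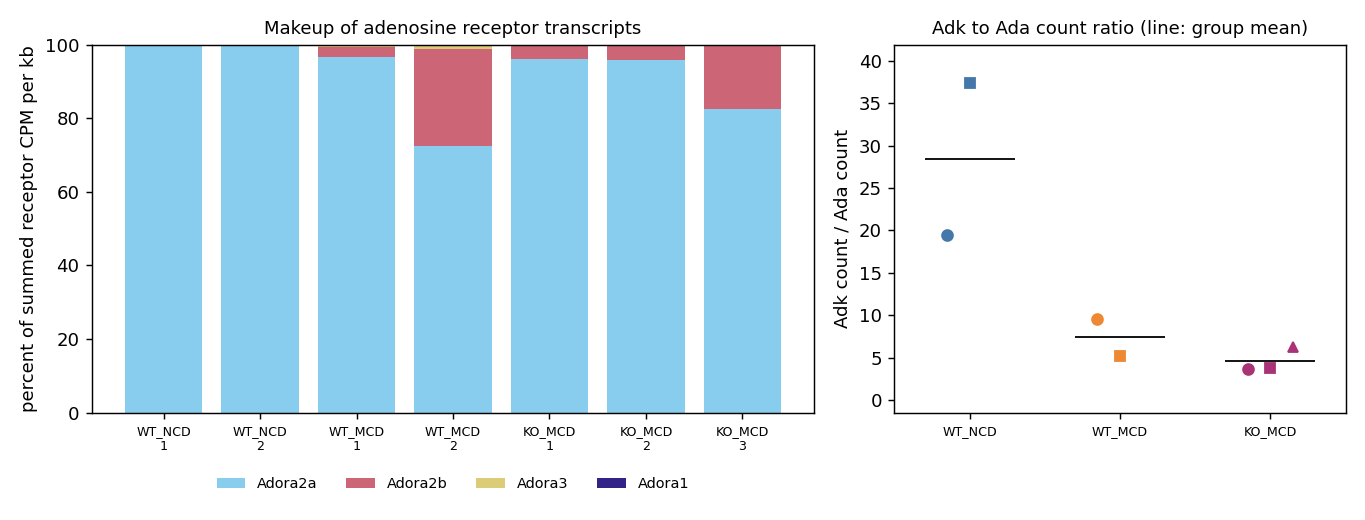
Left, share of each receptor in the summed adenosine receptor level (CPM per kb, percent) in each of the 7 libraries. Right, Adk count divided by Ada count per library, with lines at group means. Adora2a made up 72.5% to 100% of the receptor level, and the Adk to Ada ratio was 19.5 and 37.4 in WT_NCD against 3.66 to 9.56 in the other 5 libraries.

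Set on one scale per exon length, Adora2a made up all of the receptor level in both WT_NCD libraries. Its share of summed CPM per kb was 96.8% and 72.5% in WT_MCD and 96.2%, 95.9% and 82.6% in KO_MCD. Nearly all of the rest was Adora2b, at 2.72% and 26.2% in WT_MCD and 3.84%, 4.12% and 17.4% in KO_MCD. The Adora2a share was thus lowest in the 2 libraries where Adora2b was highest.

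Adk, the kinase that returns adenosine to AMP, showed the clearest difference among the enzymes and was lower in every deficient-diet library. Adk (chr14:21052574-21448569, plus strand) measured 345 and 485 CPM in the WT_NCD libraries, 118 and 138 CPM in those of WT_MCD and 118, 141 and 110 CPM in those of KO_MCD. The 5 deficient-diet libraries lay close together and did not overlap WT_NCD. The WT_NCD mean was 415 ± 99.5 CPM (SD, n = 2). WT_MCD was 3.24-fold lower, at 128 ± 14.4 CPM (SD, n = 2), and KO_MCD 3.38-fold lower, at 123 ± 16.0 CPM (SD, n = 3). On the log2 scale the change was -1.70 (SE 0.31, edgeR adjusted p = 0.548) in WT_MCD and -1.76 (SE 0.27, edgeR adjusted p = 0.203) in KO_MCD, both against WT_NCD. Neither passed edgeR over the 14784 genes kept by the low-count filter. With no such filter edgeR called the second (adjusted p = 0.0156) and not the first (adjusted p = 0.0885), and DESeq2 called both, with adjusted p = 7.63e-05 and 2.26e-06. Between the genotypes on the deficient diet the Adk change was -0.06 on the log2 scale (SE 0.27, edgeR adjusted p = 1).

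With library sizes set by the summed pan T cell genes, the Adk differences were -1.003 (SE 0.50) and -1.14 (SE 0.44) on the log2 scale. Their edgeR adjusted p was 0.588 and 0.492. The pan T cell sum was 8392 to 10774 CPM in WT_NCD, 4606 to 9053 CPM in WT_MCD and 5448 to 6965 CPM in KO_MCD. That scaling moves the median of all genes by 0.63 and 0.60, and relative to that median Adk stood at -1.68 and -1.79. Subtracting the median takes most of the rescaling back out, so these relative values are no separate check. Cell division markers and endothelial and stellate cell markers were lower in the same libraries as Adk. All 14 cell division markers were counted in every library, and their sum was 1515 to 2197 CPM in WT_NCD, 620 to 725 CPM in WT_MCD and 353 to 669 CPM in KO_MCD. The 8 endothelial and stellate cell markers summed to 217 to 231 CPM in WT_NCD, 98.5 to 108 CPM in WT_MCD and 80.4 to 132 CPM in KO_MCD. Lrat was at 0 in all 3 groups, Dcn in WT_NCD and Col1a1 in KO_MCD. The part of dividing cells or of these other cells in the Adk level was not tested.

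Ada, which deaminates adenosine to inosine, did not follow Adk. Ada (chr2:163726584-163750239, minus strand) stood at 17.7 and 13.0 CPM (WT_NCD), 12.3 and 26.6 CPM (WT_MCD) and 32.2, 37.6 and 17.6 CPM (KO_MCD). All 3 groups overlapped, with means of 15.3 ± 3.35 (SD, n = 2), 19.4 ± 10.1 (SD, n = 2) and 29.1 ± 10.3 CPM (SD, n = 3). On the log2 scale the change of Ada was 0.34 (SE 0.59) in WT_MCD against WT_NCD, 0.58 (SE 0.55) in KO_MCD against WT_MCD and 0.93 (SE 0.55) in KO_MCD against WT_NCD, with edgeR adjusted p = 1, 1 and 0.636.

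The 2 enzymes compete for the same substrate, and their count ratio does not depend on library scaling. The Adk to Ada ratio was 19.5 and 37.4 in WT_NCD, 9.56 and 5.20 in WT_MCD and 3.66, 3.74 and 6.23 in KO_MCD. Both WT_NCD libraries had higher ratios than all 5 deficient-diet libraries. The group means were 28.4 ± 12.7 (SD, n = 2), 7.38 ± 3.08 (SD, n = 2) and 4.54 ± 1.46 (SD, n = 3). The exact two-sided permutation test gave p = 0.333 for WT_MCD against WT_NCD and p = 0.2 for KO_MCD against WT_NCD, in each case the smallest p that these group sizes allow. For KO_MCD against WT_MCD the exact permutation p was 0.4, where the smallest possible is 0.2, so no comparison of 2 groups of this size could have passed 0.05.

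Pnp, which acts on the inosine that Ada makes, was close to the detection limit as counted. It had 0 and 36 counts in WT_NCD, 19 and 19 in WT_MCD and 19, 30 and 0 in KO_MCD, at most 1.55 CPM. Pnp2 had 40 and 71 counts in WT_NCD, 31 and 57 in WT_MCD and 25, 56 and 70 in KO_MCD, at most 3.33 CPM. No group stood apart for either gene, and with exons as alike as those printed above their counts do not give the level of the enzyme. The sources used here do not say how reads matching both genes were counted.

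Dpp4 (CD26), a protease of the T cell surface, binds Ada in humans, whereas mouse Dpp4 is known not to bind it well. Dpp4 (chr2:62330073-62412231, minus strand) measured 57.3 and 114 CPM in the WT_NCD libraries, 84.3 and 109 CPM in those of WT_MCD and 74.3, 78.7 and 106 CPM in those of KO_MCD. The WT_NCD libraries enclosed all 5 others, so the groups did not differ beyond their spread. Its log2 fold change was 0.18 (SE 0.41), -0.16 (SE 0.37) and 0.02 (SE 0.37) in WT_MCD against WT_NCD, KO_MCD against WT_MCD and KO_MCD against WT_NCD, each with an edgeR adjusted p of 1. The antisense gene Gm13561 had 9 counts in all libraries together.

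Of the 2 transporters, Slc29a1 (ENT1) was counted in every library and Slc29a2 (ENT2) in none of KO_MCD. Slc29a1 (chr17:45585200-45599606, minus strand) stood at 172 and 166 CPM (WT_NCD), 131 and 170 CPM (WT_MCD) and 148, 91.7 and 122 CPM (KO_MCD). KO_MCD lay below both WT_NCD libraries and overlapped WT_MCD. Slc29a1 had a log2 fold change of -0.48 (SE 0.30, edgeR adjusted p = 0.641) in KO_MCD against WT_NCD, -0.32 (SE 0.30, adjusted p = 1) in KO_MCD against WT_MCD and -0.16 (SE 0.33, adjusted p = 1) in WT_MCD against WT_NCD. With pan T cell scaling the first was 0.12 and the last 0.52, but that scaling moves the median of all genes up, by 0.60 and 0.63. Relative to that median Slc29a1 stood at -0.53 and -0.16, close to the -0.54 and -0.21 of TMM scaling. This closeness follows largely from the subtraction itself, which takes most of the rescaling back out.

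Slc29a2 (chr19:5023860-5031972, plus strand) had 154 and 0 counts in WT_NCD, 110 and 212 counts in WT_MCD and 0 counts in all 3 KO_MCD libraries, or 7.79 and 0 CPM, 5.11 and 11.1 CPM and 0 CPM. Both WT_MCD libraries were above the knockout, but WT_NCD held both a library at 0 and one at the level of WT_MCD. Against a floor of 3 counts over the KO_MCD group, Slc29a2 was at least 168-fold lower in KO_MCD than in WT_MCD (edgeR adjusted p = 1), and at least 109-fold lower without WT_MCD replicate 2. DESeq2 called this difference (adjusted p = 0.0360). Against WT_NCD it was at least 75.9-fold lower (edgeR adjusted p = 0.507; DESeq2 adjusted p = 0.0255). That value rests on WT_NCD replicate 1 alone, since without it neither group has a count. A gene counted in one library and missing from another of its group was not rare in these data: of the tested genes that reached 100 counts in a WT_NCD library, 3.88% had 0 counts in the other, and in KO_MCD 7.1% had 0 counts in at least 1 of the 3. Among the 70 values of the 10 genes 19 were 0, none lay between 1 and 9, and the lowest value above 0 was 15. These include Adora1, which was counted in 1 library and was not among the tested genes. Over all tested genes 10.6% of values were 0 and 4.43% lay between 1 and 9.

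**Figure D3:**
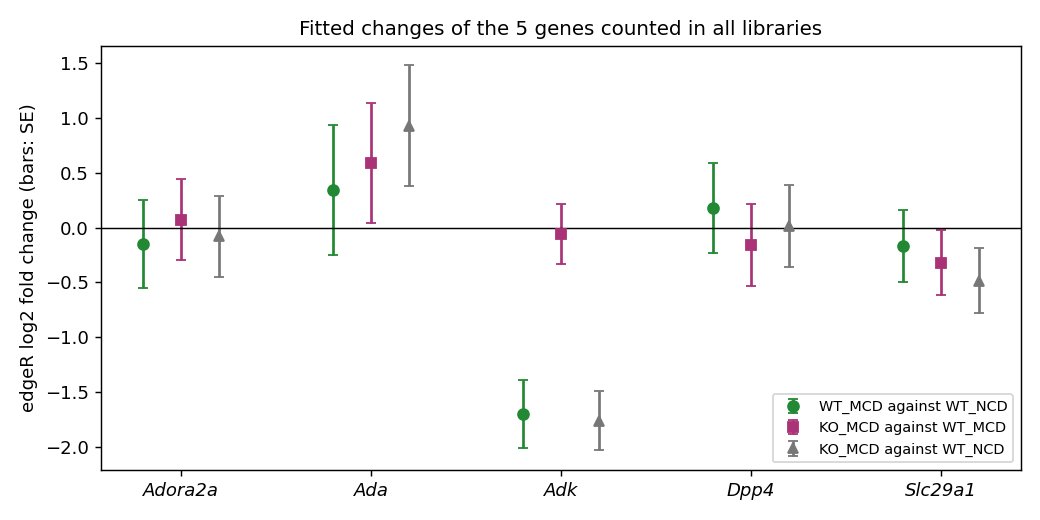
edgeR log2 fold change (linear axis; bars are SE) of the 5 adenosine genes counted in all 7 libraries, for the 3 comparisons, which share groups. Only Adk lay far from 0, at -1.70 and -1.76 in the comparisons with WT_NCD, and it was at -0.06 between the genotypes.

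In WT_MCD against WT_NCD edgeR called 0 of the 9 tested adenosine genes at an adjusted p under 0.05, against 0.0% of all 14784 genes. At an unadjusted p under 0.05 there were 3 (Adora2b and Adora3 higher, Adk lower), where 6.0% of all genes passed, and the groups did not overlap for 3, against 31.6% of all genes. Adora2b and Adora3 had 0 counts in WT_NCD and passed the low-count filter only through groups where they are high. Setting them against the share of all genes is thus no test of these genes as a set. DESeq2 called 2 (Adora2b and Adk), against 2.38% of all genes, and limma voom 0. So a non-overlap of 2 libraries against 2 is no sign of a difference by itself, being met by nearly as large a share of all genes as of these 9.

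In KO_MCD against WT_MCD edgeR called 0 of 9, against 0.0% of all genes. At an unadjusted p under 0.05 there were 2 (Adora3 and Slc29a2, both lower), against 3.25% of all genes, and the groups did not overlap for these 2, against 18.0% of all genes. Both had 0 counts in KO_MCD and passed the low-count filter only through wild type libraries, Adora3 through WT_MCD alone. Setting them against the share of all genes is thus no test of the set. DESeq2 called 1 of 10 (Slc29a2), against 0.728% of all genes, and limma voom 0. Of the 9 genes 2 had a positive and 7 a negative fitted log2 fold change, with values at 0 counts among them.

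In KO_MCD against WT_NCD, which differ in diet and genotype together, edgeR called 0 of 9, against 0.0% of all genes. At an unadjusted p under 0.05 there were 3 (Adora2b higher, Adk and Slc29a2 lower), against 8.97% of all genes. Adora2b and Slc29a2 passed the low-count filter only through groups where they are high, so the same limit holds here. The groups did not overlap for 3 (Adora2b, Adk and Slc29a1), against 26.1% of all genes. DESeq2 called 3 of 9 (Adora2b, Adk and Slc29a2), against 4.79% of all genes, and limma voom 0. The 3 comparisons share their groups, so a gene that stands apart in WT_NCD, as Adk does, appears in both comparisons that use it.

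Ordered by level per exon length, Adora2a led in all 3 groups. In WT_NCD the mean level was 57.6 CPM per kb for Adora2a, 48.7 for Adk and 42.1 for Slc29a1. Adk overlapped both of the others, while Adora2a and Slc29a1 did not overlap. Below them came Dpp4 at 13.5, Ada at 7.66, Slc29a2 at 1.29 and Pnp at 0.194 CPM per kb. In WT_MCD Adora2a led at 52.0 CPM per kb and overlapped Slc29a1 at 37.6. Dpp4 at 15.3 and Adk at 15.01 CPM per kb overlapped each other and were followed by Ada at 9.71 and Adora2b at 7.73. In KO_MCD Adora2a stood at 54.5 and Slc29a1 at 30.1 CPM per kb, and Ada at 14.6, Adk at 14.4 and Dpp4 at 13.7 overlapped. Adk was thus level with Adora2a on the control diet and with Dpp4 on the deficient diet.

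**Figure D4:**
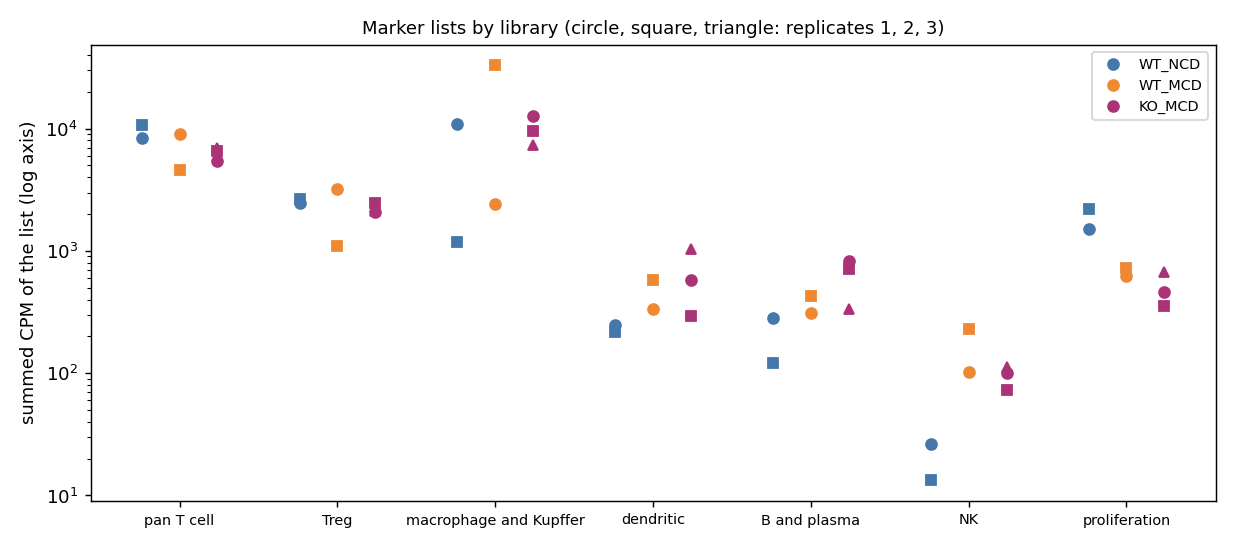
Summed CPM (log axis) of 7 marker lists in the 7 libraries, by group. WT_MCD replicate 2 had the highest macrophage and Kupffer sum, 32887 CPM, and both WT_NCD libraries had the highest proliferation sums, 1515 and 2197 CPM, and the lowest NK sums.

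The wider pathway was read from 3 lists. Of the 22 purine salvage enzymes, which recycle nucleosides and bases, edgeR called 0 in each comparison, limma voom called 0 genes in all, and DESeq2 called 1, 1 and 0, against 2.38%, 0.728% and 4.79% of all genes. In the order WT_MCD against WT_NCD, KO_MCD against WT_MCD and KO_MCD against WT_NCD they had, with TMM scaling, 13, 10 and 10 members higher and 9, 12 and 12 lower. Their median log2 fold change was 0.20 in WT_MCD against WT_NCD, -0.03 in KO_MCD against WT_MCD and -0.03 in KO_MCD against WT_NCD, beside 0.04, -0.03 and 0.06 over all genes. At an unadjusted p under 0.05 edgeR had 4 of 22 in KO_MCD against WT_NCD, 1 higher and 3 lower, where 8.97% of all genes passed. Dck, which phosphorylates deoxynucleosides including deoxyadenosine, averaged 190 ± 75.2 CPM (WT_NCD; SD, n = 2) and 76.6 ± 14.7 CPM (KO_MCD; SD, n = 3), a log2 fold change of -1.31 (SE 0.41). Adss, on the path from IMP to AMP, averaged 314 ± 132 and 135 ± 26.9 CPM, with a log2 fold change of -1.22 (SE 0.35). Ahcy, which frees adenosine from S-adenosylhomocysteine in the methionine cycle, had 37.6 ± 3.64 and 16.6 ± 4.77 CPM, with a log2 fold change of -1.18 (SE 0.42). In the other direction Impdh1, the first step towards GMP, averaged 12.3 ± 4.26 and 34.9 ± 16.0 CPM, with a log2 fold change of 1.50 (SE 0.54). The edgeR adjusted p of these 4 genes ran from 0.409 to 0.507. In each of the other comparisons 1 of 22 had an unadjusted p under 0.05, and it was the muscle AMP deaminase Ampd1, the gene that DESeq2 called, named after its values were seen: it had 2.28 and 5.28 CPM in WT_NCD, 0 counts in WT_MCD and 0.340, 1.90 and 3.38 CPM in KO_MCD.

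Of 12 cytosolic nucleotidases and other nucleoside carriers 8 passed the filter, and edgeR and DESeq2 called 0 in each comparison. Over all genes, in the same order, edgeR called 0.0% and DESeq2 2.38%, 0.728% and 4.79%. At an unadjusted edgeR p under 0.05 there were 2, 0 and 2 of the 8, against 6.0%, 3.25% and 8.97% of all genes. Of the 8, 2 were higher and 6 lower in each comparison, where all genes had 7729 higher and 6971 lower, 7083 and 7679, and 7799 and 6941. The 8 had a median log2 fold change of -0.33, -0.35 and -0.58 in the same order, beside 0.04, -0.03 and 0.06 over all genes. Slc28a2 (CNT2), which carries purine nucleosides into cells together with sodium, averaged 196 ± 41.4 CPM (WT_NCD; SD, n = 2), 75.8 ± 3.60 CPM (WT_MCD; SD, n = 2) and 102 ± 38.5 CPM (KO_MCD; SD, n = 3). Slc28a2 had a log2 fold change of -1.37 (SE 0.40, edgeR adjusted p = 0.712) in WT_MCD and -0.95 (SE 0.35, edgeR adjusted p = 0.525) in KO_MCD, both against WT_NCD, and the groups did not overlap. Non-overlap was met by 31.6% and 26.1% of all genes in these comparisons, and by 4 of the 8 tested genes of this list in each. Slc29a3 (ENT3), an equilibrative transporter of lysosomes, was higher in WT_MCD, at 86.4 ± 49.0 against 31.6 ± 6.82 CPM (log2 fold change 1.45, SE 0.53, edgeR adjusted p = 0.793). Nt5c2, a cytosolic nucleotidase, had 60.4 ± 1.74 CPM in KO_MCD against 26.3 ± 11.3 CPM in WT_NCD (log2 fold change 1.20, SE 0.45, edgeR adjusted p = 0.525).

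Of the 9 G protein alpha subunits listed for the adenosine receptors 6 passed the filter, and edgeR and DESeq2 called 0 in each comparison. Over all genes, in the same order, edgeR called 0.0% and DESeq2 2.38%, 0.728% and 4.79%. The median log2 fold change of the 6 subunits was 0.31, -0.16 and -0.33, beside 0.04, -0.03 and 0.06 over all genes. Gnai3, of the inhibitory class, was the most abundant per exon length, at 96.2 CPM per kb in WT_NCD, 130 in WT_MCD and 90.4 in KO_MCD. Gnai2 followed at 23.4, 24.2 and 15.6 CPM per kb. Gnas, which encodes the stimulatory subunit that Adora2a and Adora2b couple to, had at most 3.81 CPM in any library and 0 counts in WT_NCD. Nearly every cell uses this gene, and since the sources used here do not say how ambiguous reads were counted, these counts do not give its level. Gnas was the 1 gene of this list with an unadjusted edgeR p under 0.05, in KO_MCD against WT_NCD (adjusted p = 0.544), where 8.97% of all genes passed. It was named after its values were seen.

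For each of the 6 adenosine genes averaging 5 CPM or more, the 2 genes with the most similar course were sought among 9098 genes over the 7 libraries. Likeness was the root mean square difference of centred log2 CPM, so that 0 is an identical course. Adora2a was most like Tmf1 (0.0719) and Nemf (0.0773), Dpp4 most like Pttg1ip (0.0961) and Tmed7 (0.0970), and Slc29a1 most like Chmp2a (0.0968) and Dcaf12 (0.122). Adk was most like Ifi209 (0.176) and Ripor2 (0.196), and Ada most like Chd1l (0.165) and Arhgef1 (0.205). Adora2b was most like the NK cell receptor gene Klre1 (0.665) and F5 (0.713). Adora2b itself varied with an SD of 3.05 on this scale, against 0.306 (Slc29a1) to 0.796 (Adk) for the others. Its larger distances therefore do not by themselves mean a looser match. Klre1 is 1 of the NK markers given above and was, like Adora2b, at 0 in WT_NCD. The shared zeros enter this match, so it is no separate observation. The 7 libraries share their groups and depths, so these are descriptions only.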

How the data were processed

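Transcripts were counted in 7 libraries. The authors deposited raw counts per gene with 1 column for each library, and every column carries the title of its sample. HISAT2 2.1.0 and the GRCm38 build are named per the submitters' processing notes. Which tool counted the reads, on which annotation and with which strand setting, is not given in the sources here.

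Names, coordinates and exon lengths came from GENCODE M21, which held 53274 of 53465 IDs, and promoter windows from RefSeq. The main test was edgeR's quasi-likelihood test (version 4.0.16, R 4.3.3) on all 7 libraries, with TMM scaling, a group term only and filterByExpr at its minimum count of 10. Its p-values were adjusted by Benjamini-Hochberg over 14784 genes, with a threshold of 0.05. The scripts were tested on simulated data. Recovery was required there only at a dispersion far below that of these data. The simulation therefore does not show what edgeR could detect here. Library totals of 19731501 to 24398738 limit precision less than the spread between replicates does: the dispersion common to all genes was 0.833 (coefficient of variation 91.3%), and replicates differed by far more than counting error (chi-square of 93.8 to 348 for each degree of freedom). Bounds against a group at 0 divide the pooled CPM of its partner by 3 counts over that group.

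The members and lists were chosen with earlier results of these data known. All 10 genes are named. From each of 3 lists, up to 4 genes per comparison with an unadjusted p under 0.05 and averaging 5 CPM or more are named, by smallest p. Alternatives were 3 other scalings, 2 other filters, DESeq2 1.42.0, limma 3.58.1 voom, a block on the replicate number, the compared groups alone, a threshold of 0.1 and each library left out. A crossed block was added after the data were seen.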

Additional observations from a re-analysis of the deposited data

How the results depend on the processing

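The number of adenosine genes called by edgeR was 0 in all 3 comparisons and stayed 0 under the other scalings, a minimum count of 50, voom, a threshold of 0.1, the 2 groups alone and each library left out (lowest 0, highest 0). It moved to 1 for WT_MCD against WT_NCD and 2 for KO_MCD against WT_NCD with no low-count filter, which called 54 and 140 genes in all; these were Adora2b in the first, and Adora2b and Adk in the second. With DESeq2 it was 2 for WT_MCD against WT_NCD, 1 for KO_MCD against WT_MCD and 3 for KO_MCD against WT_NCD, among 383, 135 and 750 genes, against 0 genes by edgeR. The cause was not tested, and DESeq2 was not rerun with libraries left out. Replicates differed by far more than counting error, with a chi-square of 93.8 to 348 for each degree of freedom.

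Replicate numbers are shared between groups, but same-numbered libraries did not deviate together (correlation of their differences -0.10, -0.06 and -0.01). With the replicate block 0 adenosine genes were called in each comparison. It turned the log2 fold change of Adk to 0.013 in KO_MCD against WT_MCD, and those of Adora2a to 0.12 and Dpp4 to -0.086 in KO_MCD against WT_NCD. A crossed pairing of WT_NCD with WT_MCD, chosen after seeing the data, called 0 of 13297 genes, as did the same-number pairing.

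Of 348 values of 22 fold changes under these settings, 315 kept direction and side of the threshold, 9 passed it and 24 changed sign. Genes averaging under 5 CPM entered this tally only where exactly 1 of the compared groups had no counts. It thus leaves out Pnp, Slc29a2 in WT_MCD against WT_NCD and Adora3 in KO_MCD against WT_NCD. Values where a left-out library brought both groups to no counts are also not in it. Pan T cell scaling, which moves the median of all genes by 0.63 and 0.60 in the comparisons with WT_NCD, turned Adora2a to 0.30 and Slc29a1 to 0.52 in WT_MCD against WT_NCD, and Adora2a to 0.47 and Slc29a1 to 0.12 in KO_MCD against WT_NCD. Relative to that median they stood at -0.37 and -0.16, and at -0.18 and -0.53. Subtracting the median takes most of the rescaling back out, so the signs of these relative values are no separate check. Unscaled library totals, which move the median of all genes by 0.10 and 0.11 in the comparisons with KO_MCD, turned Adk to 0.054 in KO_MCD against WT_MCD and Adora2a to 0.023 in KO_MCD against WT_NCD.

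With 1 library left out, log2 fold changes in WT_MCD against WT_NCD ran from -0.63 to 0.21 for Adora2a, -0.31 to 0.77 for Ada and -0.23 to 0.76 for Dpp4. In KO_MCD against WT_MCD they ran from -0.28 to 0.57 for Adora2a, -1.63 to 1.34 for Adora2b, 0.17 to 1.24 for Ada (without WT_MCD replicate 1 and 2), -0.17 to 0.059 for Adk and -0.34 to 0.035 for Dpp4. In KO_MCD against WT_NCD they ran from -0.36 to 0.28 for Adora2a and -0.40 to 0.60 for Dpp4. Adk kept its direction against WT_NCD, at -1.92 to -1.42 in WT_MCD and -1.99 to -1.48 in KO_MCD.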
